A study of Homo sapiens with 36 samples.

Results

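The comparison described here sets *TXNL1* knockout (KO) HEK293T cells that expressed SxxS TXNL1 against the same kind of KO cells that carried an empty vector, both without an oxidant. Its members were chosen by their labels alone and are 6 of the 36 messenger RNA libraries of the series, 3 of SxxS cells and 3 of vector cells. HEK293T is a human embryonic kidney cell line. In SxxS TXNL1 both catalytic cysteines of the thioredoxin domain are replaced by serine, and the study describes this mutant as still able to bind proteasomes. All lines used here were KO cells: a guide RNA and Cas9 had been delivered on a plasmid, and clones had been grown from sorted single cells. The complementing TXNL1 came from a lentiviral construct with the CMV promoter. Whether the lines descend from 1 clone is not stated, so that a difference between the lines and an effect of the TXNL1 variant cannot be told apart. The comparison was read beside untreated cells with WT TXNL1 or with the D162R R234D mutant, which is deficient in proteasome binding (3 libraries each), and beside SxxS and vector cells treated with arsenite (100 µM) or with hydrogen peroxide (600 µM), each for 6 h (12 libraries). Untreated cells had received the solvent DMSO.

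TXNL1 is a cytosolic thioredoxin-like protein made of a thioredoxin domain, which comes first, and a PITH domain that docks on the regulatory particle of the proteasome. Thioredoxins reduce disulfide bonds in other proteins with a pair of cysteines in a CxxC motif, and the spent motif is reduced again by thioredoxin reductase. The proteasome is the protease that degrades ubiquitin-tagged proteins. The comparison therefore addresses which transcripts differ when KO cells regain a TXNL1 protein without its catalytic cysteines.

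The stretch of *TXNL1* that the mutation changes is shown because it is the only designed difference between the SxxS and WT proteins. The coding sequence of the GENCODE transcript ENST00000217515 has 289 codons and holds 1 CxxC motif, at codons 34 and 37. These 30 coding bases lie on the minus strand of GRCh38, with 8 bases in exon 1 (chr18:56638343-56638350) and 22 in exon 2 (chr18:56626436-56626457). They are the reference sequence, written 5′ to 3′, and the capitals mark both cysteine codons. The mutated codons themselves were not read from the libraries, since counts per gene do not show them.
*TXNL1* CxxC segment: atgagagggTGTgggccaTGTttgaggatt

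Total counts ran from 53581560 to 59983836 in the vector libraries and from 61443139 to 78602699 in the SxxS libraries, and replicates of either group differed by more than counting error (chi-square per degree of freedom between 3.18 and 6.06). HEK293T markers were present at a summed level of 729 to 737 CPM in vector and 724 to 795 CPM in SxxS libraries (CPM, the usual depth-normalised count, here on edgeR's TMM-scaled library sizes). Of 6 leukocyte markers only 3 had enough counts to be tested, and together these reached 2.84 to 3.71 CPM in vector and 3.66 to 4.14 CPM in SxxS libraries. All 6 fibroblast markers were tested, at summed levels of 28.5 to 35.8 and 30.0 to 41.5 CPM, and no member of these 3 lists was called. The study's methods describe cells in multi-well plates treated in triplicate, so that p-values measure the spread between such parallel samples of 1 line per variant.

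Few transcripts separated SxxS cells from vector cells. Of 22486 tested genes, 9 were called, that is, passed an adjusted p of 0.05 (quasi-likelihood F-test of edgeR, adjusted after Benjamini and Hochberg), which is 0.04% of those tested. In direction, 7 of the genes were lower in SxxS cells (*IGFBP2*, *CELF2*, *TSC22D3*, *MAT2A*, *SERPINF1*, *LPL* and *ARNT2*) and 2 were higher (*TXNL1* itself and *EMILIN2*). Only *IGFBP2* and *LPL* changed by a log2 fold change of 1 or more. The middle 50% of all tested genes lay between log2 fold changes of -0.08 and 0.08, and 1264 genes (5.62%) had an unadjusted p under 0.05. In all 9 genes the 3 SxxS libraries did not overlap the 3 vector libraries, which was also true of 17% of all tested genes.

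The number of calls depended on the libraries that shared the estimate of spread. The 12 untreated libraries of the 4 lines were fitted together, which gave a biological coefficient of variation of 6.55%. Replicates of the added lines agreed less well than the 6 libraries compared. Chi-square per degree of freedom was 6.82 to 13.6 in WT and 7.26 to 32.9 in D162R R234D cells. D162R R234D replicate 3 lay furthest from its group of all libraries used (SD of log2 deviations 0.193). With only the 6 libraries compared, 220 genes were called (81 higher and 139 lower), and with all 36 libraries of the series 4 were called. Leaving out vector replicate 1 gave 5 calls, and leaving out vector replicates 2 or 3 or SxxS replicate 1 gave 4. All 9 genes were among the 220, and *IGFBP2*, *TXNL1*, *TSC22D3* and *LPL* were the 4 called with all 36 libraries.

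**Figure D1:**
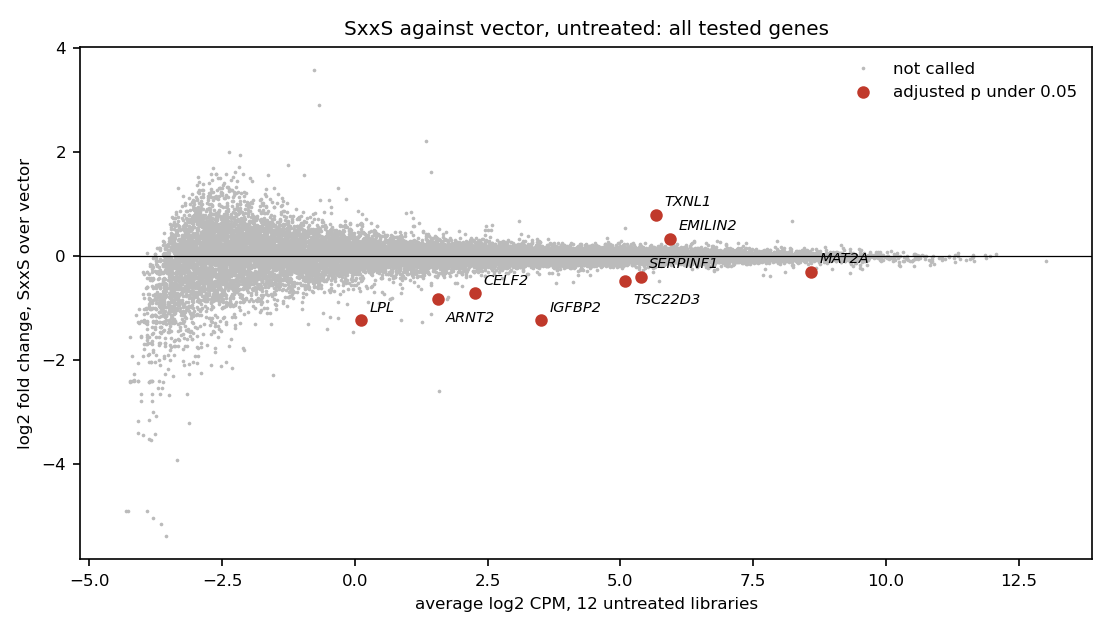
Log2 fold change of SxxS over vector cells against the average log2 CPM over the 12 untreated libraries, 1 point per tested gene (22486 genes). The 9 called genes are drawn large and named. Of these, 2 lie above 0 and 7 below 0. Genes that were not called reach like fold changes at low abundance, such as *PLPP4* at -1.20.

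*TXNL1* (ENSG00000091164, chromosome 18, 56597209 to 56651600, minus strand) is both the knocked-out and the complemented gene. In untreated cells its level was 32.2, 32.0 and 28.9 CPM in the vector libraries and 55.8, 54.3 and 52.2 CPM in the SxxS libraries. Every SxxS library lay above every vector library, and transcript was present in the KO cells too. The rise was 1.74-fold (log2 fold change 0.80, SE 0.06, adjusted p = 1.14e-06). Counts per gene sum the edited endogenous transcripts and the construct's, so that the level does not check the knockout, and an exon of *TXNL1* overlaps a gene on the opposite strand.

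The excess of *TXNL1* transcript in SxxS cells was also seen under both oxidants. After arsenite the level was 69.4 ± 2.61 CPM (SD, n = 3) in vector and 99.0 ± 0.189 CPM in SxxS cells, and after hydrogen peroxide it was 31.8 ± 0.723 and 62.6 ± 3.09 CPM. On the linear scale SxxS cells exceeded vector cells by 23.0 CPM untreated, 29.6 CPM after arsenite and 30.8 CPM after hydrogen peroxide. On the log2 scale the difference was 0.51 after arsenite, where the vector level was high, and 0.98 after hydrogen peroxide, and these changes from the untreated difference missed the threshold (adjusted p = 0.243 and 0.429). The WT line reached 55.1 ± 3.27 CPM untreated, and SxxS and WT cells differed by a log2 fold change of -0.03 (SE 0.06).

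The called genes with the widest fall in SxxS cells were *IGFBP2* and *LPL*. *IGFBP2* (ENSG00000115457, chromosome 2, 216632828 to 216664436, plus strand) encodes a secreted protein that binds insulin-like growth factors. Its level was 19.3, 20.6 and 18.8 CPM in vector libraries and 7.58, 8.16 and 9.34 CPM in SxxS libraries. The highest SxxS library was thus well below the lowest vector library. The log2 fold change was -1.23 (SE 0.12, adjusted p = 0.000364), a level 57.3% lower. In the list of the insulin-like growth factor axis, *IGFBP2* was the only call among 18 tested members, whose median log2 fold change was 0.06. With 0.04% of all tested genes called, a list of this size would rarely hold a further call. This list, like those used for *LPL* and *EMILIN2* below, was chosen with earlier results of these data known. *IRS4*, *IGF2BP1*, *IGF2R* and *STC2*, its members with most counts, had log2 fold changes of 0.08, 0.12, 0.11 and 0.02 with adjusted p from 0.914 to 0.991.

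*LPL* (ENSG00000175445, chromosome 8, 19901717 to 19967259, plus strand) encodes lipoprotein lipase, which hydrolyses triglycerides in circulating lipoproteins. It was a low transcript in this table, at 1.89, 2.08 and 1.86 CPM in vector and 0.577, 1.05 and 0.859 CPM in SxxS libraries. The groups did not overlap, with a log2 fold change of -1.23 (SE 0.21, adjusted p = 0.0258). Among 18 tested members of the list of triglyceride lipases and lipoprotein receptors it was again the only call (0.04% of all tested genes were called), and the median of the list was -0.01. The call was lost when any library other than SxxS replicate 2 was left out (adjusted p 0.104 to 0.230 without vector replicates 1, 2 or 3 or SxxS replicates 1 or 3).

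*CELF2* and *ARNT2* also fell. *CELF2* (ENSG00000048740, chromosome 10, 10798397 to 11336675, plus strand) is an RNA-binding protein of splicing and translation, and it fell from 6.52, 6.81 and 6.48 CPM in vector libraries to 3.99, 4.05 and 4.10 CPM in SxxS libraries. *ARNT2* (ENSG00000172379, chromosome 15, 80404350 to 80597933, plus strand), a transcription factor that pairs with other members of its family on DNA, fell from 4.66, 4.72 and 4.94 CPM to 2.86, 2.44 and 2.77 CPM. Neither gene had a library that crossed to the other group. The log2 fold changes were -0.71 for *CELF2* (SE 0.09, adjusted p = 0.000953) and -0.82 for *ARNT2* (SE 0.14, adjusted p = 0.0337). *CELF2* stayed past the threshold without any of the 6 libraries, whereas *ARNT2* passed in none of these fits (adjusted p 0.147 to 0.437), and its exons overlap other genes on both strands.

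The remaining falls were smaller in fold but concerned well-counted transcripts. *TSC22D3* (ENSG00000157514, chromosome X, 107713221 to 107777342, minus strand), the glucocorticoid-induced leucine zipper protein, measured 42.2, 44.1 and 38.7 CPM in vector and 31.1, 30.1 and 28.3 CPM in SxxS libraries (log2 fold change -0.48, SE 0.07, adjusted p = 0.00298). *SERPINF1* (ENSG00000132386, chromosome 17, 1762029 to 1777565, plus strand), a secreted member of the serpin family, measured 49.0, 49.2 and 49.1 CPM against 35.3, 38.5 and 38.4 CPM (log2 fold change -0.39, SE 0.06, adjusted p = 0.00738). Vector libraries agreed closely for *SERPINF1*, and for both genes all SxxS libraries were lower. Without vector replicate 2 *TSC22D3* missed the threshold (adjusted p = 0.0526), and *SERPINF1* missed it without vector replicates 1, 2 or 3 or SxxS replicate 1 (adjusted p 0.0640 to 0.142).

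*MAT2A* and *EMILIN2* completed the list. *MAT2A* (ENSG00000168906, chromosome 2, 85539168 to 85545281, plus strand) encodes the catalytic subunit of the enzyme that makes S-adenosylmethionine, the methyl donor of the cell, from methionine. It measured 407, 408 and 428 CPM in vector and 322, 343 and 345 CPM in SxxS libraries, a fall of 18.8% (log2 fold change -0.30, SE 0.04, adjusted p = 0.00298). *EMILIN2* (ENSG00000132205, chromosome 18, 2847006 to 2916003, plus strand), an extracellular matrix glycoprotein, rose from 53.7, 51.6 and 53.4 CPM to 65.7, 64.1 and 70.7 CPM (1.26-fold, log2 fold change 0.34, SE 0.05, adjusted p = 0.00738). It was the only call besides *TXNL1* that was higher in SxxS cells, and the only call among 28 tested extracellular matrix genes (0.04% of all tested genes were called). *MAT2A* missed the threshold without vector replicate 3 or SxxS replicate 1 (adjusted p = 0.0692 and 0.0533), and *EMILIN2* missed it without any library but SxxS replicate 2 (adjusted p 0.0533 to 0.132). Both genes, like *TSC22D3*, overlap an exon on the opposite strand.

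The untreated WT and D162R R234D cells placed the 8 called genes other than *TXNL1* in 2 patterns, described here after the values were seen. In the first pattern, WT, D162R R234D and SxxS cells lay together and apart from vector cells. *IGFBP2* measured 7.79 ± 1.34 CPM in WT, 9.87 ± 1.89 CPM in D162R R234D, 8.36 ± 0.897 CPM in SxxS and 19.5 ± 0.941 CPM in vector cells (SD, n = 3). *CELF2*, *LPL* and *ARNT2* had the same arrangement, with means in the 3 complemented lines of 4.04 to 4.40, 0.597 to 0.884 and 2.10 to 2.69 CPM, against 6.60, 1.94 and 4.77 CPM in vector cells. The comparisons with vector share the 3 vector libraries, so that a deviation of those libraries would appear in each of them.

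In the second pattern, SxxS cells lay with WT cells, and D162R R234D cells lay near or beyond vector cells. *MAT2A* measured 336 ± 12.9 CPM in SxxS and 340 ± 6.36 CPM in WT cells, but 414 ± 12.1 CPM in vector and 447 ± 1.37 CPM in D162R R234D cells. *EMILIN2* measured 66.8 ± 3.41 CPM in SxxS and 74.8 ± 1.92 CPM in WT cells, but 52.9 ± 1.16 CPM in vector and 50.9 ± 2.19 CPM in D162R R234D cells. No SxxS or WT library overlapped a vector or D162R R234D library for either gene. *SERPINF1* was 37.4 ± 1.84 CPM in SxxS and 35.2 ± 1.67 CPM in WT cells, against 49.1 ± 0.0924 CPM in vector and 45.8 ± 3.28 CPM in D162R R234D cells, and *TSC22D3* was 29.8 ± 1.44, 27.4 ± 0.363, 41.7 ± 2.76 and 37.0 ± 3.09 CPM in the same order.

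**Figure D2:**
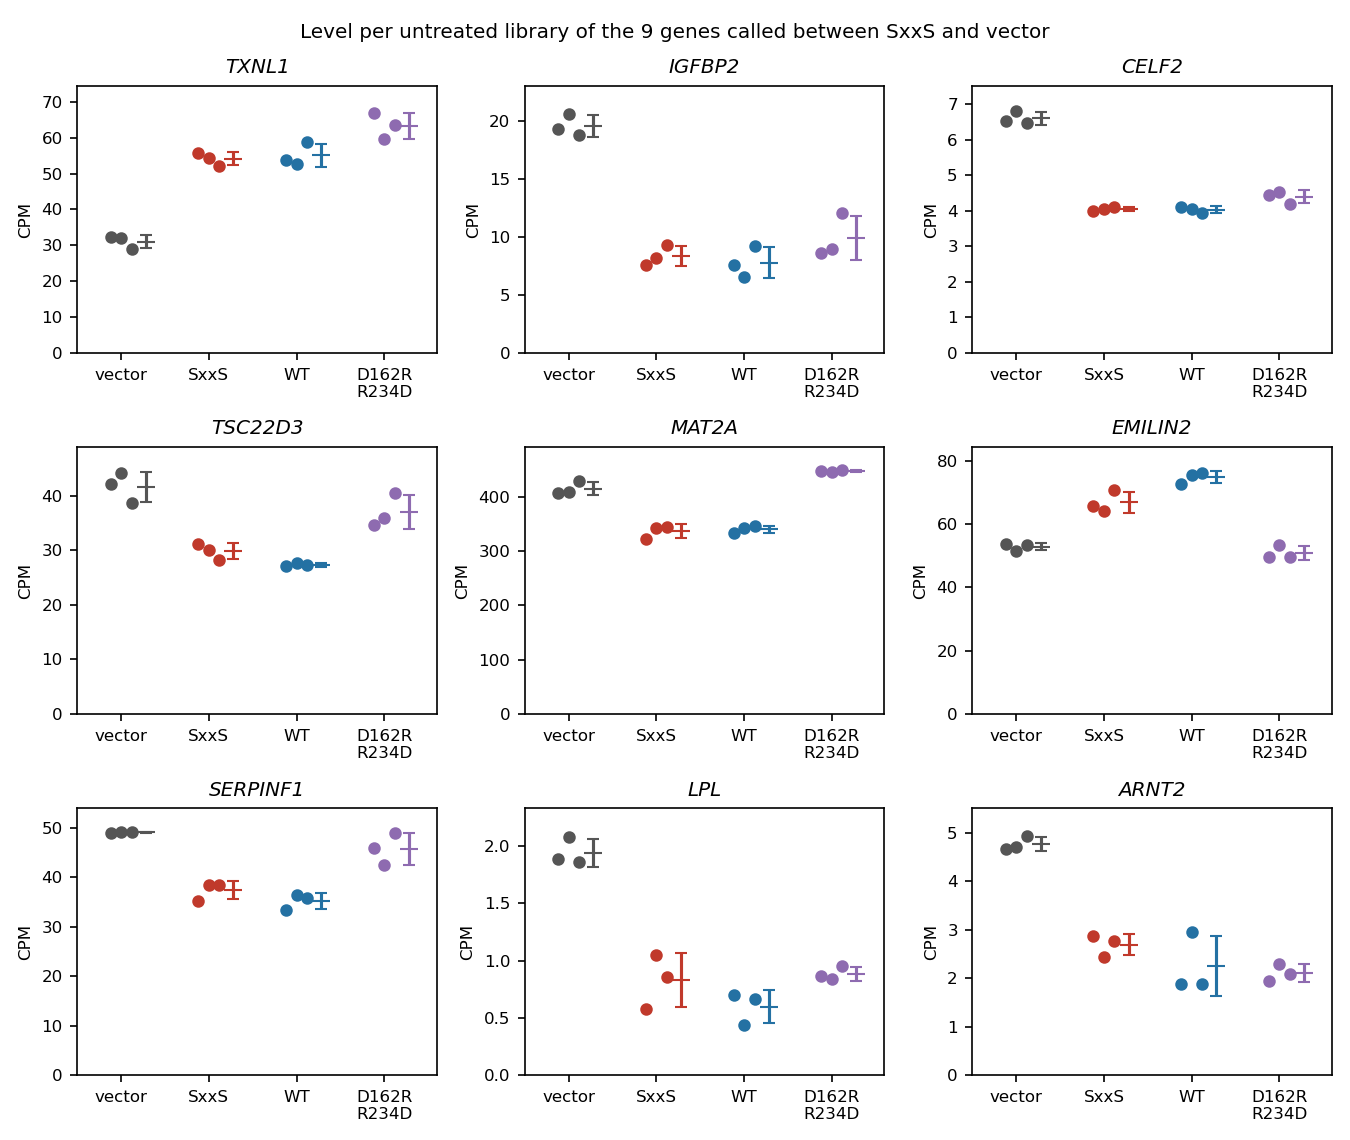
Level in CPM of the 9 called genes in each untreated library of the vector, SxxS, WT and D162R R234D lines (points, 3 per line), with the mean and SD beside them. *IGFBP2*, *CELF2*, *LPL* and *ARNT2* are high in the vector line alone, while *MAT2A* and *EMILIN2* pair SxxS with WT and vector with D162R R234D.

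Tested directly, SxxS cells differed from D162R R234D cells in 4 genes (0.0178% of those tested). *MAT2A* was lower in SxxS cells (log2 fold change -0.41, SE 0.04, adjusted p = 0.000132) and *EMILIN2* higher (0.39, SE 0.05, adjusted p = 0.00296). *ASNS*, the asparagine synthetase gene, was lower, at 155 ± 3.62 CPM in SxxS and 194 ± 5.21 CPM in D162R R234D cells (log2 fold change -0.32, SE 0.05, adjusted p = 0.0094). The fourth, ENSG00000284707, overlaps *ASNS* on the same strand and had nearly the same values (157 ± 3.51 and 195 ± 4.99 CPM), so that both may count the same reads. *ASNS* was 171 ± 3.86 CPM in vector and 142 ± 8.75 CPM in WT cells and was not called between SxxS and vector cells (log2 fold change -0.14, adjusted p = 0.684). *TSC22D3* and *SERPINF1* did not pass against D162R R234D cells (log2 fold changes -0.31 and -0.29, adjusted p = 0.221 and 0.192). Without SxxS replicate 1 or 2, 2 genes were called in this comparison, and without D162R R234D replicate 1, 7 were.

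SxxS cells differed from WT cells in 197 genes (0.876% of those tested), of which 194 were higher in SxxS cells, and none of the 9 genes called against vector was among them. WT cells also stood apart from vector cells, with 184 of 22486 tested genes called, 164 of them lower in WT cells. Against vector cells 4 genes were called in D162R R234D cells, so that the many calls were particular to comparisons with WT cells. For *IGFBP2*, *CELF2* and *MAT2A* the log2 fold changes against WT were 0.09 (SE 0.13), 0.00 (SE 0.09) and -0.02 (SE 0.04). The 5 genes with the smallest adjusted p (each 0.00237) were *CFD*, *STARD7-AS1*, *PPDPF*, *ZNF503* and *CBR1-AS1*, and all were higher in SxxS cells, with log2 fold changes of 0.57 to 1.06. *CFD*, the complement protease factor D, measured 7.73, 8.33 and 6.96 CPM in SxxS and 3.89, 3.48 and 3.67 CPM in WT libraries, and its vector level of 7.17 ± 1.04 CPM was close to that of SxxS cells. *STARD7-AS1* and *CBR1-AS1* overlap genes on the opposite strand, and without known strand use their reads cannot be assigned.

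GC content moved with this comparison and not with the main one. With genes sorted into 5 equal groups by exon GC content, the median log2 fold change of SxxS over WT cells went from -0.04 in the lowest group to 0.09 in the highest, whereas over vector cells it was 0.01 in both. For WT over vector cells the median went from 0.046 in the lowest group to -0.085 in the highest, so that the trend lay with the WT libraries. With an offset for GC content, 68 genes were called between SxxS and WT (56 higher and 12 lower). The part of GC content in the 197 calls was not otherwise tested. Without WT replicate 2 only 9 genes were called, without SxxS replicate 2, 18, without WT replicate 3, 43, and without SxxS replicates 1 or 3, 69 or 91.

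The oxidant-treated libraries of the same 2 lines gave the comparison again in samples that the untreated fit had not used. With 1 line per variant, agreement between treatments cannot tell a lasting difference between the lines from an effect of the variant. After arsenite 62 genes were called between SxxS and vector cells (0.276%), 52 of them lower, and after hydrogen peroxide 34 (0.151%), 26 of them lower. Of the 9 genes called in untreated cells, 7 were called in the same direction after arsenite and 7 after hydrogen peroxide, and the 7 were shared by both oxidants. After arsenite 50 genes were called without vector replicate 1 and 24 to 33 without any other of the 6 libraries. After hydrogen peroxide 15 to 21 were called without vector replicates 2 or 3 or SxxS replicates 1 or 3, and 38 or 39 without the others. *IGFBP2* again fell most clearly, from 21.8 ± 1.39 to 9.82 ± 0.591 CPM after arsenite and from 18.1 ± 0.635 to 8.68 ± 0.903 CPM after hydrogen peroxide (log2 fold changes -1.14 and -1.05, adjusted p = 1.05e-09 and 1e-08).

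The other 6 shared genes kept their sign but not always their size. *CELF2* was as far below vector cells after arsenite and hydrogen peroxide (log2 fold changes -0.74 and -0.75) as without an oxidant. *LPL* differed by -1.31 and -0.92, *TSC22D3* by -0.32 and -0.49 and *SERPINF1* by -0.30 and -0.41 on the log2 scale. *ARNT2* was further apart after the oxidants, at 1.90 ± 0.335 CPM in SxxS and 5.64 ± 0.604 CPM in vector cells after arsenite (log2 fold change -1.58) and at 2.80 ± 0.575 and 6.65 ± 0.693 CPM after hydrogen peroxide (-1.24). The change in its difference with arsenite was -0.75 (SE 0.19), which missed the threshold (adjusted p = 0.466).

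**Figure D3:**
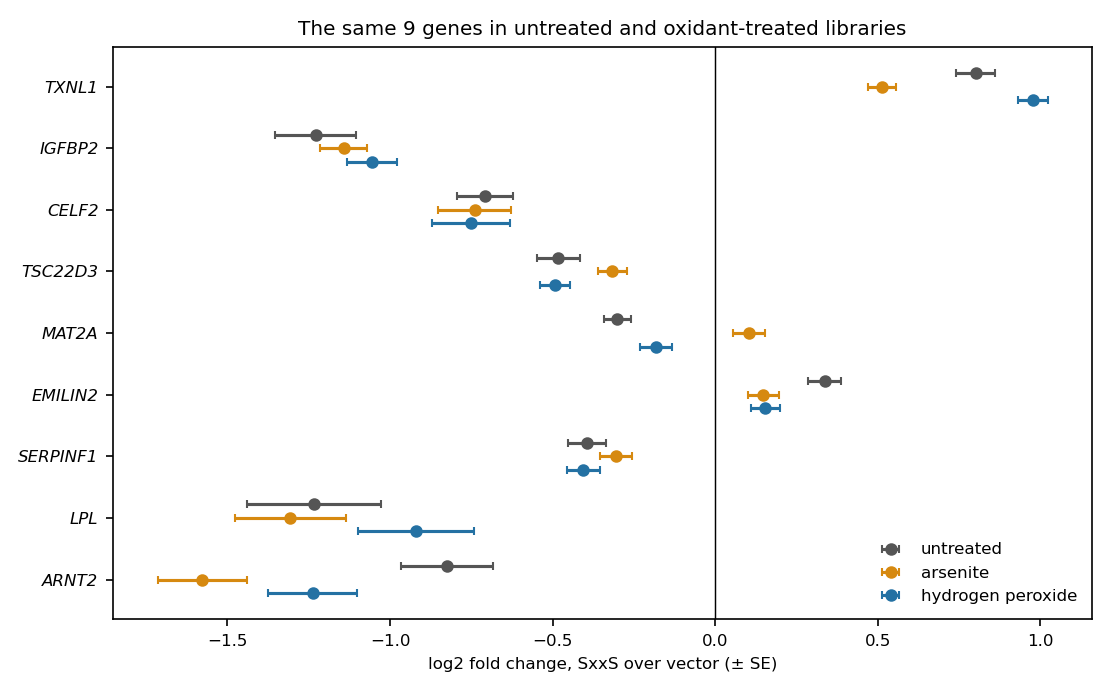
Log2 fold change of SxxS over vector cells (± SE) for the 9 genes in untreated, arsenite-treated and hydrogen peroxide-treated cells, 3 libraries per line and treatment. Signs agree across treatments for 8 genes, and *MAT2A* crosses zero after arsenite.

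*MAT2A* and *EMILIN2* were the exceptions. *MAT2A* fell in both lines after arsenite, to 95.8 ± 4.65 CPM in vector and 103 ± 2.26 CPM in SxxS cells, where the log2 fold change was 0.10 (adjusted p = 0.543). After hydrogen peroxide it was 342 ± 7.36 and 302 ± 26.8 CPM (log2 fold change -0.18, adjusted p = 0.172). The difference between SxxS and vector cells changed with arsenite by 0.41 on the log2 scale (SE 0.06, adjusted p = 0.0113), the only gene called in that test (0.00445% of those tested). The call was lost without untreated vector replicate 3, untreated SxxS replicate 1, arsenite vector replicate 2 or arsenite SxxS replicates 1 or 3. *EMILIN2* stayed higher in SxxS cells after either oxidant, by log2 fold changes of 0.15 and 0.15, without passing the threshold (adjusted p = 0.263 and 0.210). The corresponding test for hydrogen peroxide called 0 genes (0%) in edgeR, with 1976 genes at an unadjusted p under 0.05, and 36 by DESeq2.

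Genes called after both oxidants numbered 15, which is 24.2% of the arsenite calls and 44.1% of the hydrogen peroxide calls. Besides the 7 above they were *MRC2*, *MAMLD1*, *ADGRB2*, *IRF8*, *PFKL*, *COL6A2*, *CNTNAP2* and *BACE2*, which were chosen for description after their values were seen. All 8 were lower in SxxS cells after the oxidants, and all 8 were also below vector cells untreated, by log2 fold changes of -0.21 to -1.17 that did not pass adjustment (adjusted p 0.227 to 0.858). *IRF8*, a transcription factor of blood cells, measured 1.15, 1.07 and 1.26 CPM in untreated vector and 0.489, 0.598 and 0.454 CPM in untreated SxxS libraries. *BACE2*, an aspartyl protease related to the β-secretase, measured 14.6, 15.6 and 15.4 CPM against 11.9, 12.1 and 12.7 CPM. In both genes the untreated groups did not overlap, which was also true of 17% of all tested genes.

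More widely, 59 of the 62 arsenite calls (95.2%) and 33 of the 34 hydrogen peroxide calls (97.1%) had the same sign in untreated cells, against 56.2% and 50.7% of all tested genes. *PLPP4*, a phospholipid phosphatase gene, came next after the 9 calls in untreated cells, at 1.25, 1.16 and 1.21 CPM in vector and 0.514, 0.557 and 0.503 CPM in SxxS libraries (log2 fold change -1.20, adjusted p = 0.0759). It was called after arsenite (log2 fold change -1.20, adjusted p = 0.00632) and not after hydrogen peroxide (-0.90, adjusted p = 0.0864).

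No gene was called in the groups that bear most directly on TXNL1, by edgeR or by DESeq2, but with 0.04% of all genes called, lists of this size would rarely hold a call. The 25 tested thioredoxin system genes had a median log2 fold change of -0.02, and 1 had an unadjusted p under 0.05. *TXN*, the main cytosolic thioredoxin, and *TXNRD1*, its reductase, had log2 fold changes of -0.04 (SE 0.06) and 0.00 (SE 0.05). The 12 tested peroxide and superoxide enzymes had a median of -0.03 and none with an unadjusted p under 0.05. *PRDX1*, the peroxiredoxin with most counts, was at -0.02 (SE 0.05).

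Proteasome subunit genes were close to level. All 35 tested members had log2 fold changes between -0.07 and 0.04, with a median of -0.02, none called and none with an unadjusted p under 0.05. *PSMD1*, *PSMD4* and *PSMD14*, the subunits that TXNL1 contacts, measured 270 ± 5.60, 192 ± 5.25 and 138 ± 3.85 CPM in vector and 265 ± 6.37, 188 ± 2.18 and 135 ± 1.66 CPM in SxxS cells. Among 29 proteasome activators, assembly factors and binding proteins 1 had an unadjusted p under 0.05 (median 0.00, with a single low-count member at -2.42 and the highest at 0.11), and *PITHD1*, the other human PITH domain gene, was at 54.4 ± 1.28 CPM in vector and 54.4 ± 2.55 CPM in SxxS cells.

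Genes of stress programmes were likewise without a call in untreated cells, which at the same background says little of these lists. This covered 20 tested members of ATF4 and its targets (median -0.02), 20 of NRF2 and its targets (median 0.00), 19 heat shock factor targets (median 0.00), 5 metallothionein and zinc genes (median 0.04), 16 genes of the unfolded protein response (median -0.01), 18 immediate early genes (median 0.04) and 13 interferon-stimulated genes (median 0.05). *ATF4*, the transcription factor of the integrated stress response, was at 546 ± 20.5 CPM in vector and 517 ± 13.9 CPM in SxxS cells (log2 fold change -0.08, SE 0.05, adjusted p = 0.946), and its groups overlapped. An unadjusted p under 0.05 was found for 4 members of the ATF4 list, 2 of the NRF2 list, 1 heat shock factor target and none of the others, against 5.62% of all tested genes. The summed level of the ATF4 list was 2867 to 2923 CPM in vector and 2743 to 2804 CPM in SxxS libraries, without overlap. WT libraries, at 2742 to 2800 CPM, were as low as SxxS libraries, and D162R R234D libraries lay at 2926 to 3061 CPM. The sums of 11 of the 25 lists, this one included, did not overlap (5 lower and 6 higher in SxxS cells). Those of the proteasome subunits and of the peroxide and superoxide enzymes were among the lower. Of the other lists, 22 G2 and mitosis genes, 20 G1/S and replication genes and 16 p53 targets had medians of 0.03, -0.01 and -0.02, with 2, 2 and 1 members at an unadjusted p under 0.05.

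**Figure D4:**
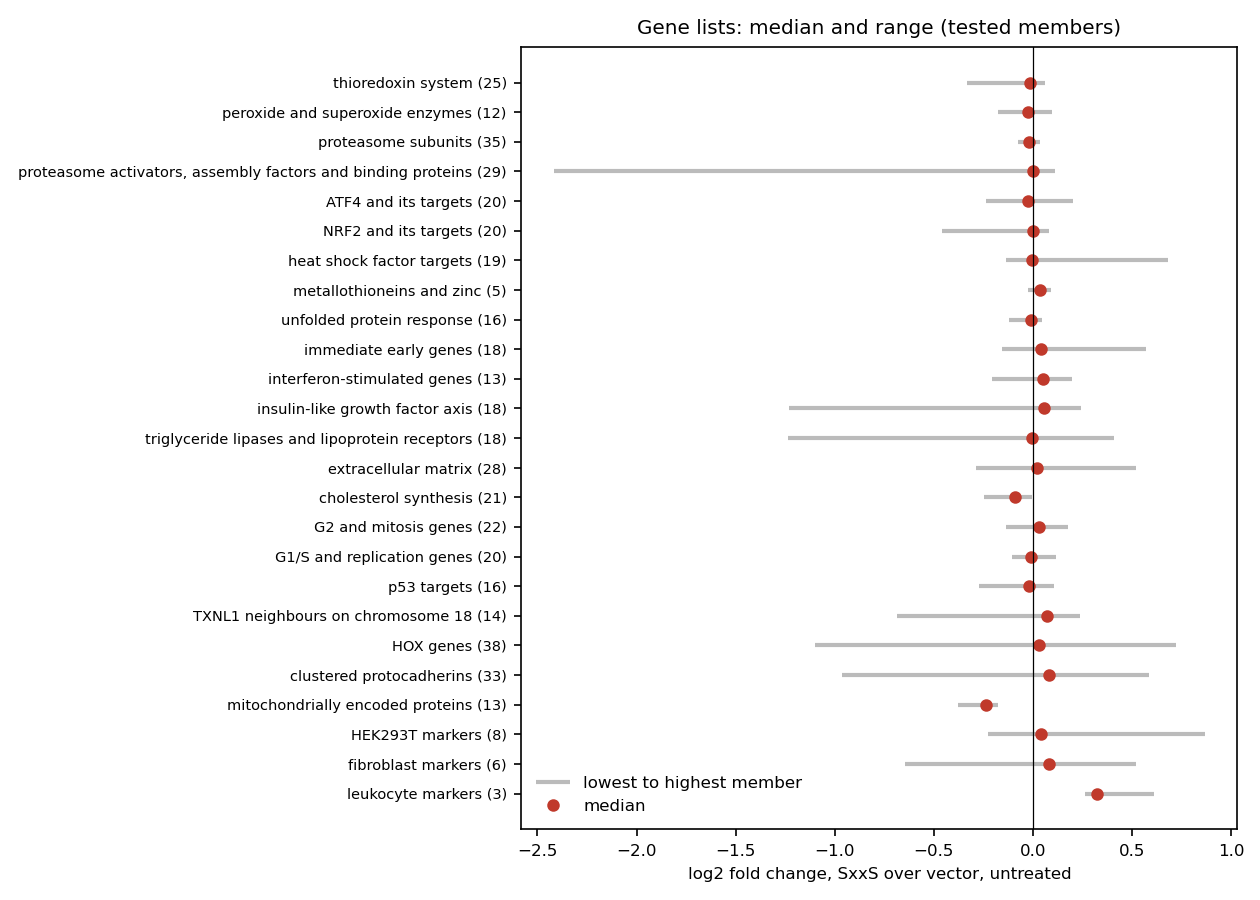
Log2 fold change of SxxS over vector cells, untreated, for each gene list: the median of its tested members (point), the lowest to the highest member (line) and the number of tested members in brackets. Medians lie between -0.09 and 0.08, except for the mitochondrially encoded genes (-0.24) and the leukocyte markers (0.33).

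Cholesterol synthesis genes were all on the low side. Each of the 21 tested members had a log2 fold change below 0, against 49.2% of all tested genes. Their median was -0.09, where the median of all tested genes was 0.00. None was called (lowest adjusted p = 0.176). DESeq2 called 1 of them, with 32 genes called in all. The fit of only the 6 libraries called 4, with 220 of all 22486 tested genes called. Members with an unadjusted p under 0.05 numbered 9 of the 21, against 5.62% of all tested genes, among them *INSIG1*, which holds back the sterol-sensing transcription factors in the endoplasmic reticulum (90.2 ± 5.40 CPM in vector and 76.1 ± 4.10 CPM in SxxS cells), and *SQLE*, the squalene epoxidase (131 ± 0.417 and 117 ± 3.20 CPM). The summed level of the list was 2608 to 2656 CPM in vector and 2445 to 2490 CPM in SxxS libraries, without overlap, which was also true of the sums of 11 of the 25 lists, this list included (5 lower and 6 higher in SxxS cells). WT libraries, at 2495 to 2551 CPM, were also below vector libraries, and D162R R234D libraries, at 2600 to 2674 CPM, were not. The sum was 2451 to 2469 and 2327 to 2386 CPM after arsenite, and 2454 to 2534 and 2350 to 2424 CPM after hydrogen peroxide. *MSMO1*, a sterol C4-methyl oxidase, was called after arsenite (log2 fold change -0.30, adjusted p = 0.00203) and not after hydrogen peroxide (-0.16, adjusted p = 0.205).

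Mitochondrially encoded transcripts were lower in untreated SxxS cells without a call. All 13 had a log2 fold change below 0 (median -0.24), against 49.2% of all tested genes. An unadjusted p under 0.05 was found for 2 of the 13, against 5.62% of all tested genes. Their summed level was 6805 to 7431 CPM in vector and 5600 to 6331 CPM in SxxS libraries. The WT and D162R R234D libraries spread more widely, from 6169 to 8413 and from 6263 to 8061 CPM. After arsenite the order was reversed, with 4217 to 4375 CPM in vector and 4580 to 5314 CPM in SxxS libraries, and after hydrogen peroxide the groups overlapped. With only the 6 untreated libraries 4 of the 13 were called, in a fit that called 220 of all 22486 tested genes. Without a filter on low counts 11 were, in a fit that called 135 genes in all. In bulk RNA, fewer cells that hold a transcript and less of it in each cell cannot be told apart.

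Genes of chromosome 21 were slightly but evenly lower in SxxS than in vector cells, a pattern found by inspection of the chromosomes. Of its 102 protein-coding genes with a mean of at least 5 CPM, 90 (88.2%) had a log2 fold change below 0 in untreated cells, and the median was -0.09. On the other chromosomes combined, 49.3% of such genes were below 0, and the medians of single chromosomes ran from -0.02 to 0.05. After arsenite the median of chromosome 21 was -0.10 with 92.2% of genes below 0, and after hydrogen peroxide it was -0.11 with 95.1% below 0. The shift ran along the chromosome, with medians of -0.09, -0.10 and -0.10 in the first, middle and last 34 genes by position, and it was -0.11 in the 49 genes without exon overlap. None of the 9 called genes lies on this chromosome, but *BACE2*, *PFKL* and *COL6A2* do.

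Library by library the shift was narrow. Relative to the mean of the 3 vector libraries of the same treatment, the median over the 102 genes was -0.099, -0.088 and -0.086 in the untreated SxxS libraries, and the vector libraries themselves lay at 0.001, 0.005 and -0.006. WT libraries were at -0.109 to -0.085 and D162R R234D libraries at -0.096 to -0.084, so that vector cells stood apart from all 3 complemented lines. In the 12 oxidant-treated libraries the SxxS value was also below the vector value (mean difference -0.10 on the log2 scale). The shift is given as a description with no test, since the chromosome was picked for it and each variant is 1 line.

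**Figure D5:**
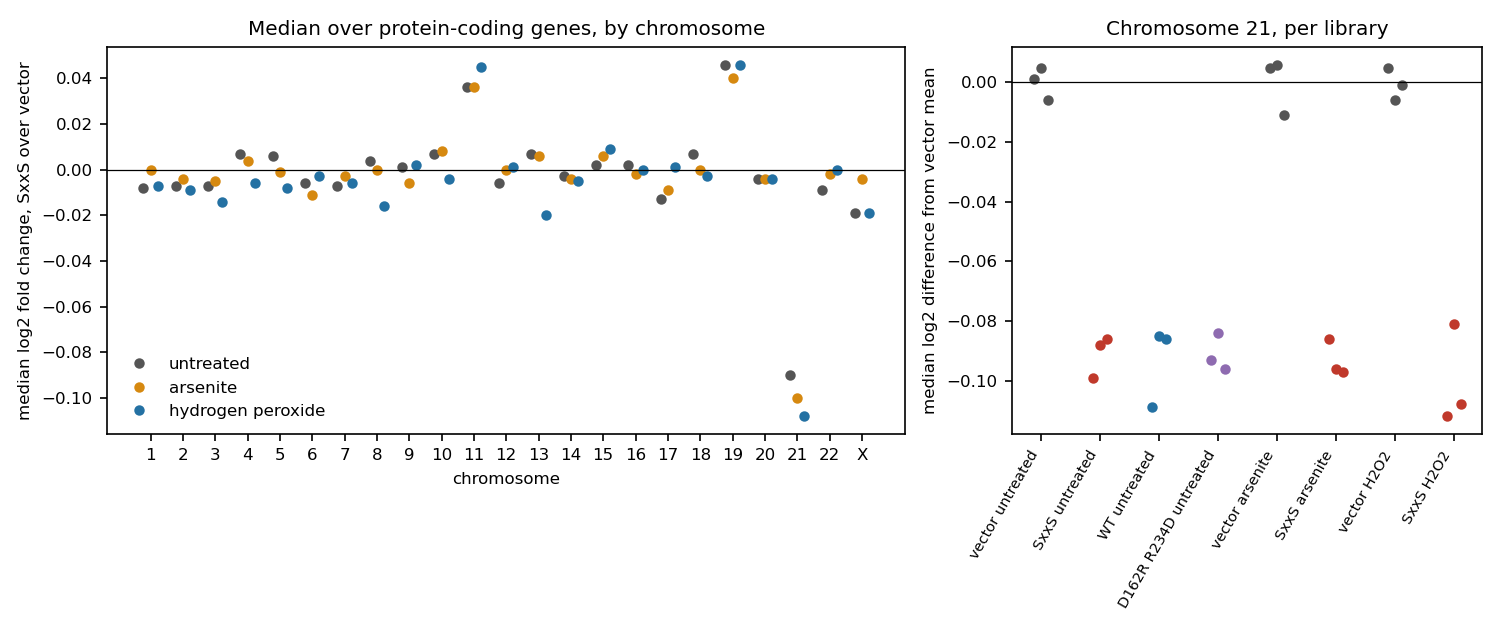
Left, median log2 fold change of SxxS over vector cells over protein-coding genes with a mean of at least 5 CPM, by chromosome and treatment. Right, median log2 difference of the chromosome 21 genes from the mean of the 3 vector libraries of the same treatment, 1 point per library; the vector libraries lie between -0.011 and 0.006, and every complemented library lies lower, at -0.081 or below.

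Chromosomes 11 and 19 had medians above 0. Their medians were 0.04 (613 genes) and 0.05 (702 genes) in untreated cells, 0.04 and 0.04 after arsenite and 0.04 and 0.05 after hydrogen peroxide. The chromosome 11 rise was not particular to SxxS cells. Over untreated vector cells its median was 0.033 in WT and 0.045 in D162R R234D cells. For chromosome 19 these medians were -0.024 and 0.061. On chromosome 19 the SxxS libraries overlapped the vector libraries after either oxidant, and the untreated WT libraries lay at -0.050 to 0.004. Of the genes called after arsenite, 8 of 62 lay on chromosome 21 and all 8 were lower in SxxS cells, and of those called after hydrogen peroxide 6 of 34 did, all lower. Chromosome 21 holds 1.06% of the tested genes. How far this shift enters the calls was not tested. *TXNL1* neighbours on chromosome 18 had a median log2 fold change of 0.07 over 14 tested genes, with 1 at an unadjusted p under 0.05 and no call.

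HOX genes and clustered protocadherins, whose levels often differ between lines of the same origin, had no call among 38 and 33 tested members. With 0.04% of all genes called, this says little of either list. Members at an unadjusted p under 0.05 numbered 3 and 1, against 5.62% of all tested genes. The medians were 0.03 and 0.08, and single members ran from -1.10 to 0.72 and from -0.96 to 0.59 at low counts. HOX genes did differ in other comparisons. Against WT cells 3 were called, all higher in SxxS cells (0.876% of all genes called), and 14 had an unadjusted p under 0.05 (9.82% of all genes). WT cells were low for these genes against vector cells too. There 33 of the 38 were below 0 (median -0.09) and 1 was called, lower in WT cells (184 of 22486 genes called). An unadjusted p under 0.05 was found for 11 (12.3% of all genes). After hydrogen peroxide 1 was called higher in SxxS than in vector cells (0.151% of all genes called).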

How the data were processed

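Messenger RNA libraries were sequenced as 100-base pairs by the authors, who aligned the reads to GRCh38 with QuasR and deposited raw counts per gene, not normalized or pooled. The annotation release, strand use and counting of mates are not given in the sources used here; halved counts were tried. Samples were grouped by their labels. Of 61587 gene identifiers, 61369 were found in GENCODE 44, used for names, positions and overlaps (57.1% of tested genes share exon bases with another gene). Genes with at least 10 counts over the 3 untreated vector libraries were kept, as in the authors' filter (22486 genes). Counts were fitted with edgeR 4.0.16 in R 4.3.3 (TMM, robust quasi-likelihood, Benjamini-Hochberg): 12 untreated libraries, 12 oxidant-treated SxxS and vector libraries, or all 18 SxxS and vector libraries for changes with an oxidant. The code was tested on simulated data. Counting depth limits low genes such as *LPL*.

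The genes named are *TXNL1*; up to 15 rises and 15 falls among the calls of SxxS against vector whose groups did not overlap, with at least 1 CPM in either group; the 10 smallest adjusted p of that comparison; the 4 best-counted and any called members of each list; up to 5 calls of each other test; and *ATF4*, *PSMD1*, *PSMD4*, *PSMD14*, *PITHD1*, *IGFBP2*, *LPL* and *EMILIN2*. *INSIG1*, *SQLE*, *MSMO1* and the genes called after both oxidants were named after their values were seen. The comparison, the lists and this choice of fit were made with earlier results of these data known. Alternatives included DESeq2 1.42.0, other filters, scalings and libraries, a replicate block and leaving out each library. Those added after the values were seen were a GC offset, the 18 libraries in 1 fit, leaving out 2 outlying WT libraries, and only genes without exon overlap. Libraries used held at least 42072410 counts each.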

Additional observations from a re-analysis of the deposited data

Results flagged for a closer look

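*MAT2A* was marked because its difference between SxxS and vector cells changed with the treatment. The difference of differences, arsenite against untreated, was 0.41 on the log2 scale (adjusted p = 0.0113, edgeR over 18 libraries). In untreated cells all 3 SxxS libraries (322, 343 and 345 CPM) were below all 3 vector libraries (407, 408 and 428 CPM), while after arsenite all 3 SxxS libraries (105, 100 and 104 CPM) were above the vector libraries (99.6, 90.6 and 97.1 CPM). The call was lost when TMM scaling was replaced by total counts, with a GC offset and with all 36 libraries in the fit.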

How the results depend on the processing

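Over 21 alternative settings, the 9 genes called between untreated SxxS and vector cells kept their sign in all 184 values and their call in 156. The 9 were all called wherever they were tested under DESeq2 size factors, total counts, DESeq2, the other filters, only the 6 libraries, halved counts, the replicate block and the GC offsets. With all 36 libraries *CELF2*, *MAT2A*, *EMILIN2*, *SERPINF1* and *ARNT2* lost their call. Of the gene lists without a call, the fit of only the 6 libraries called 4 cholesterol synthesis genes, 4 mitochondrially encoded genes, 2 genes each of the ATF4 and of the G2 and mitosis lists and 1 peroxide enzyme. That fit called 220 of all 22486 tested genes.

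SxxS against vector, untreated, gave 32 calls with DESeq2, 135 with no filter, 220 with only the 6 libraries, 4 with all 36, 32 with all but 2 outlying WT libraries, 70 with the 18 SxxS and vector libraries, 4 among genes without exon overlap and 4 to 8 without 1 library. SxxS against WT gave 360 with DESeq2, 533 with no filter, 367 with only the 2 groups, 31 with all 36, 68 with a GC offset, 96 with the GC offset and block, 432 with all but 2 WT libraries, 60 without exon overlap and 9 to 212 without 1 library. SxxS against D162R R234D gave 48 with DESeq2, 346 with no filter, 1 with only the 2 groups, 56 with all but 2 WT libraries, 0 without exon overlap and 2 to 7 without 1 library. After arsenite the counts were 182 with DESeq2, 176 with no filter, 6 with all 36, 96 with halved counts, 140 with a GC offset, 94 with GC offset and block, 34 without exon overlap, 109 with 18 libraries and 24 to 50 without 1 library. After hydrogen peroxide they were 121 with DESeq2, 176 with no filter, 22 with only the groups compared, 10 with all 36, 65 with a GC offset, 54 with GC offset and block, 58 with 18 libraries and 15 to 39 without 1 library. The change with arsenite was called in 14 genes by DESeq2, 20 with no filter, 9 with only the groups compared, 0 to 3 without 1 library, and 0 with total counts, with all 36, with either GC offset and without exon overlap. The change with hydrogen peroxide was called in 36 genes by DESeq2, 143 with no filter, 2 with the replicate block and 0 to 5 without 1 library. The settings without exon overlap test fewer genes; for the rest the cause was not tested.

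Replicate numbers showed little sign of pairing in the expression values. Same-numbered SxxS and vector libraries correlated in their deviations from the group means at -0.029, 0.078 and 0.043. Libraries of unlike number correlated at -0.089 to 0.042. With 3 libraries per group these values cannot show whether same-numbered samples were handled together. Total counts fell from replicate 1 to replicate 3 in both groups. With the number as a replicate block, 9 genes were called between untreated SxxS and vector cells, the same 9.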

Other observations

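Across the 15497 genes with a mean of at least 1 CPM, log2 fold changes of SxxS over vector cells in untreated cells correlated with those after arsenite (Pearson's r = 0.233) and after hydrogen peroxide (r = 0.126), and those after the 2 oxidants correlated with each other at r = 0.153. These are descriptions across genes, which are not independent replicates. The untreated libraries share no sample with the treated ones.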
